A study of Arabidopsis thaliana with 6 samples.

Results

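JKD, SGN3, FER and SCN1 are 4 Arabidopsis thaliana genes that act in root tissue patterning, in the endodermal barrier and in the start and tip growth of root hairs. They were taken from a list of symbols and matched to the array's annotation by locus, and they are 4 of the 13356 genes that had a probe set of their own there. JKD, FER and SCN1 carry these symbols in the annotation, and SGN3 stands in it under its other name, GSO1. Each had 1 probe set, and all 4 probe sets were above the array's own 40th percentile of signal on all 6 arrays.

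The 6 arrays (Affymetrix ATH1) measured root RNA of 3 genotypes in the Col-0 background, 2 arrays each. 35S::RSL4 carries RSL4 behind the 35S promoter of cauliflower mosaic virus, which is active in most plant tissues. The mutant rsl4-1 is a T-DNA knock-out of RSL4, whose product, a transcription factor with a basic helix-loop-helix domain, drives the growth of root hairs. Col-0 is the wild type. The label for genetic variation gives the knock-out entry for 35S::RSL4 as well as for rsl4-1, so the genotypes are those of the sample titles. Seedlings of every genotype grew at 25 °C in constant light on upright plates, on a medium of pH 5.7 with phytagel (0.5%) and sucrose (1%), to growth stage 3.2. The first entry on cold treatment of the seeds gives 4 days for 35S::RSL4 and rsl4-1 and 2 days for Col-0, while the growth text gives 4 days for all 3, and this difference cannot be told apart from genotype in any comparison with Col-0. Whether the 2 samples of a genotype were grown separately is not stated, so the spread behind every p-value may be technical. RSL4 itself had no probe set of its own in the annotation, and its level was not analysed here.

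Root hairs are tubular outgrowths of epidermal cells, and which epidermal cells form them depends on cues from the tissue beneath. JKD (JACKDAW) is a zinc finger protein of the INDETERMINATE DOMAIN family that acts with SHORT ROOT and SCARECROW in the ground tissue, the layers between epidermis and stele, and from there also affects the fate of epidermal cells. SGN3 (SCHENGEN3, GASSHO1) is a leucine-rich repeat receptor kinase of the endodermis that is needed for an unbroken Casparian strip, the lignin barrier around that layer. FER (FERONIA) is a receptor kinase that perceives RALF peptides and acts through ROP GTPases and reactive oxygen species in hair growth. SCN1 (SUPERCENTIPEDE1) confines ROP activity and reactive oxygen species to 1 place on the cell, so that a hair-forming cell starts a single hair.

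Of the 4 genes, JKD was lower in 35S::RSL4 than in both other genotypes, and SGN3, FER and SCN1 passed the test in no comparison. JKD did not pass in rsl4-1 against Col-0 either, so limma called 0 of the 4 genes there, and 0 of the 4 had an unadjusted p under 0.05. Calls are those of limma with an adjusted p under 0.05 over all 14170 tested probe sets. By that rule 6.27% of all tested probe sets were called in 35S::RSL4 against Col-0 (3.39% higher and 2.88% lower), 3.81% in rsl4-1 against Col-0 (1.67% higher and 2.15% lower) and 5.46% in 35S::RSL4 against rsl4-1 (3.19% higher and 2.27% lower). An unadjusted p under 0.05 was reached by 22.7%, 16% and 19.4% of tested probe sets in the same 3 comparisons, and by JKD alone of the 4 genes in the comparisons of 35S::RSL4. Comparisons that share a genotype share its arrays, so their values are given side by side and are not independent of each other.

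JKD, the patterning gene, had signals of 26.3 and 24.9 in 35S::RSL4, of 41.7 and 47 in rsl4-1, and of 49.2 and 49.7 in Col-0 (MAS5 signal in scaled units). Both 35S::RSL4 arrays were below the other 4, both rsl4-1 arrays were just below both Col-0 arrays, and no 2 genotypes overlapped. The means were 25.6 ± 0.967 in 35S::RSL4, 44.4 ± 3.71 in rsl4-1 and 49.5 ± 0.378 in Col-0 (SD, n = 2 each). In 35S::RSL4 JKD fell 1.93-fold against Col-0 (log2 change -0.95, 95% interval -1.35 to -0.54, adjusted p = 0.0072). Against rsl4-1 it fell 1.73-fold in 35S::RSL4 (log2 change -0.79, 95% interval -1.19 to -0.38, adjusted p = 0.021). This second comparison is also the test of whether JKD differed between the 2 lines.

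In rsl4-1 the log2 change of JKD against Col-0 was -0.16 (SE 0.19, adjusted p = 0.75). Its 95% interval ran from -0.57 to 0.25, which allows folds from 0.675 to 1.19. The order of the genotypes was therefore 35S::RSL4, rsl4-1 and Col-0 from low to high, and only 35S::RSL4 stood apart from its neighbour beyond the spread. Arrays of 2 genotypes failed to overlap often: this held for 53.4% of all tested probe sets in 35S::RSL4 against Col-0, for 48% in rsl4-1 against Col-0 and for 47.2% in 35S::RSL4 against rsl4-1.

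Among the 14170 tested probe sets, 117, JKD among them, had a log2 change in 35S::RSL4 against Col-0 as far down as that of JKD or farther, or 0.826%. Over the 6 arrays its highest signal was 1.99 times its lowest, while the median of this ratio over all tested probe sets was 1.44. JKD was also the dimmest of the 4 probe sets beside the array's own 40th percentile, which was 20.6 and 20.3 in 35S::RSL4, 21.8 and 21.7 in rsl4-1, and 22.4 and 22.2 in Col-0. The call against Col-0 ended without 35S::RSL4 replicate 2, Col-0 replicate 1 or Col-0 replicate 2 (adjusted p = 0.053, 0.076 and 0.064). That against rsl4-1 ended without either array of 35S::RSL4 or of rsl4-1 (adjusted p from 0.063 to 0.18) and with no filter on dim probe sets (adjusted p = 0.077), while the log2 change stayed between -0.87 and -0.70 under all alternatives run.

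**Figure D1:**
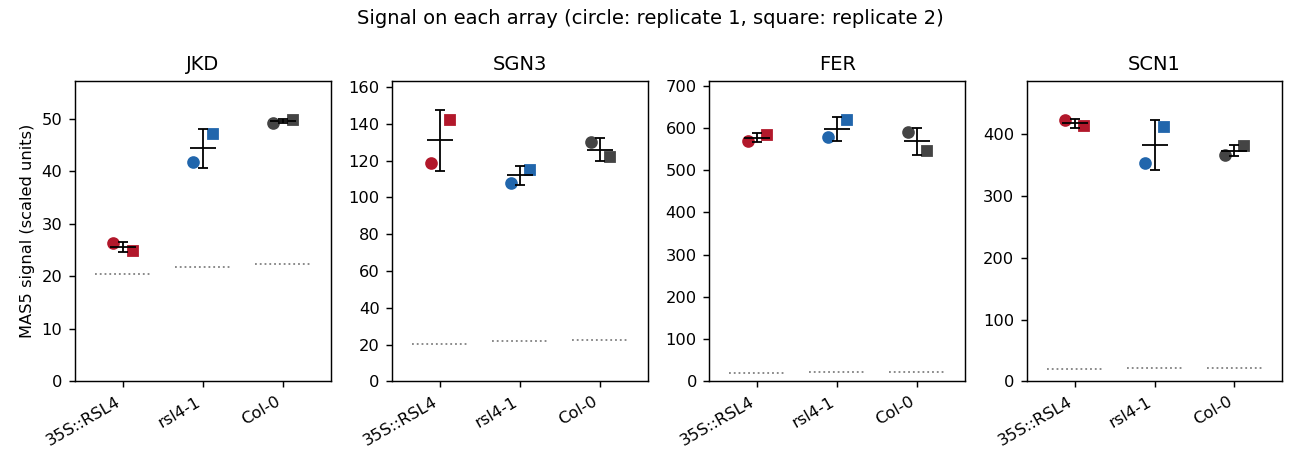
MAS5 signal (linear axis from 0, scaled units) of JKD, SGN3, FER and SCN1 on each of 6 arrays, with circles for replicate 1, squares for replicate 2, bars for the mean ± SD of 2 arrays, and dotted lines for the mean of the 2 arrays' 40th percentiles. JKD sits at 26.3 and 24.9 in 35S::RSL4, close above the dotted line, against 41.7 to 49.7 in rsl4-1 and Col-0, while the other 3 genes lie far above that line in every genotype.

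SGN3, the receptor of the endodermal barrier, had signals of 119 and 142 in 35S::RSL4, of 108 and 115 in rsl4-1, and of 130 and 122 in Col-0. The 35S::RSL4 arrays lay on both sides of the Col-0 arrays, and both rsl4-1 arrays were below all others. Means were 131 ± 16.5 in 35S::RSL4, 112 ± 5.3 in rsl4-1 and 126 ± 6.27 in Col-0 (SD, n = 2 each). The log2 change was 0.05 in 35S::RSL4 against Col-0 (95% interval -0.27 to 0.36, adjusted p = 0.89). In rsl4-1 against Col-0 it was -0.17 (95% interval -0.49 to 0.14, adjusted p = 0.63), and in 35S::RSL4 against rsl4-1 it was 0.22 (95% interval -0.10 to 0.54, adjusted p = 0.46). Neighbours in the order rsl4-1, Col-0, 35S::RSL4 thus did not differ beyond their spread, and the intervals against Col-0 allow folds from 0.829 to 1.29 in 35S::RSL4 and from 0.711 to 1.1 in rsl4-1.

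FER, the RALF receptor, was the steadiest of the 4. Its signal was 569 and 584 in 35S::RSL4, 578 and 618 in rsl4-1, and 590 and 545 in Col-0. All 3 genotypes overlapped one another, and the highest of the 6 arrays was 1.13 times the lowest. The SD of its log2 signal over the 6 arrays was 0.06, against a median of 0.199 over all tested probe sets, and 0.988% of tested probe sets had a smaller one. Its log2 change was 0.02 in 35S::RSL4 against Col-0 (95% interval -0.23 to 0.28, adjusted p = 0.94), a value whose sign turned with quantile normalization (-0.03). It was 0.08 in rsl4-1 against Col-0 (95% interval -0.18 to 0.33, adjusted p = 0.82). The widest folds these intervals allow are 0.850 to 1.21 in 35S::RSL4 and 0.882 to 1.26 in rsl4-1, so a change of FER transcript as large as the fall of JKD lies outside both.

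SCN1, the inhibitor of ROP GTPases, had signals of 422 and 412 in 35S::RSL4, of 353 and 411 in rsl4-1, and of 366 and 380 in Col-0. The 35S::RSL4 arrays were the 2 highest, with rsl4-1 replicate 2 within 1 unit of the lower of them, and rsl4-1 spanned the Col-0 range. Means were 417 ± 7.22 in 35S::RSL4, 382 ± 40.6 in rsl4-1 and 373 ± 9.42 in Col-0 (SD, n = 2 each). The log2 change was 0.16 in 35S::RSL4 against Col-0 (95% interval -0.11 to 0.43, adjusted p = 0.49). Against Col-0 the rsl4-1 change was 0.03 (95% interval -0.24 to 0.30, adjusted p = 0.94). Although 35S::RSL4 and Col-0 did not overlap, 53.4% of all tested probe sets met that condition, and the interval allows folds from 0.924 to 1.35.

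**Figure D2:**
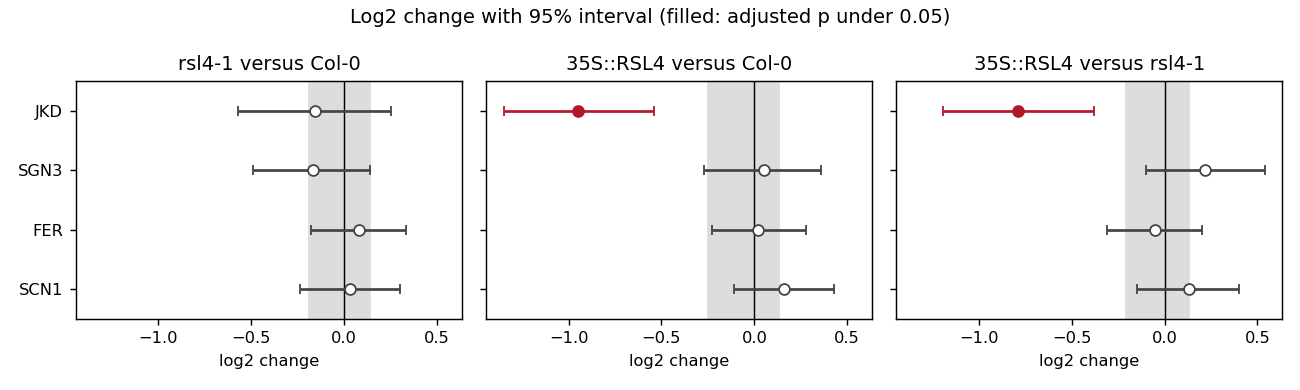
Log2 change (horizontal axis) of the 4 genes in the 3 comparisons, with 95% intervals from limma, filled red points for adjusted p under 0.05, and a grey band from the lower to the upper quartile of all 14170 tested probe sets. JKD stands at -0.95 and -0.79 in the comparisons of 35S::RSL4, with intervals that stay below 0, and every interval of SGN3, FER and SCN1 includes 0.

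The partners of the 4 genes were examined from lists of known pathway members, of which few could be tested. The 10 pathway lists held 133 loci, of which 29 had a probe set of their own and 16 were tested. None of the loci on the lists for suberin and for root hair tip growth had such a probe set. A list member is called by its locus where the annotation used here gives it no name.

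Of 11 genes of radial patterning, 3 had their own probe set and JKD alone was tested. The other 2, among them the GRAS family gene SCL23, were below the 40th percentile on all 6 arrays, with signals from 6.13 to 15.4. Among 13 INDETERMINATE DOMAIN genes JKD was likewise the only one tested. The list of epidermal cell fate held 11 genes, of which QKY was tested. QKY (QUIRKY), a membrane protein that acts with the receptor SCRAMBLED in epidermal patterning, had signals of 56.9 and 49.7 in 35S::RSL4, of 73.9 and 85.5 in rsl4-1, and of 80.7 and 68.2 in Col-0. Both 35S::RSL4 arrays were below the other 4, as for JKD. Groups failed to overlap for 53.4% of all tested probe sets against Col-0 and for 47.2% against rsl4-1. The differences of QKY did not pass: the log2 change was -0.48 against Col-0 (adjusted p = 0.10) and -0.58 against rsl4-1 (adjusted p = 0.059).

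Of 16 Casparian strip genes 3 were tested, and limma called 0 of them in each comparison, beside 3.81% to 6.27% of all tested probe sets. An unadjusted p under 0.05 was reached by 1 in each comparison that includes rsl4-1. Among all tested probe sets, 16% reached it against Col-0 and 19.4% against 35S::RSL4. Beside SGN3 the tested genes were AT4G34600 and AT1G61590. AT1G61590 had signals of 405 and 337 in 35S::RSL4, of 275 and 283 in rsl4-1, and of 404 and 370 in Col-0. Both rsl4-1 arrays were thus the lowest, as for SGN3. Groups failed to overlap for 48% of all tested probe sets in rsl4-1 against Col-0 and for 47.2% in 35S::RSL4 against rsl4-1. The log2 change of AT1G61590 in rsl4-1 against Col-0 was -0.47 (adjusted p = 0.067). AT4G34600 did not share this order: its signals were 371 and 307 in 35S::RSL4, 250 and 419 in rsl4-1, and 371 and 304 in Col-0. Its rsl4-1 arrays were thus the lowest and the highest of the 6, and its log2 change in rsl4-1 against Col-0 was -0.05 (adjusted p = 0.94). The 3 genes had a median log2 change of 0.01 in 35S::RSL4 and of -0.17 in rsl4-1 against Col-0, beside -0.06 and -0.03 over all tested probe sets.

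FER belongs to a family of receptor kinases with malectin-like domains, of which 17 were listed, 12 had their own probe set and 7 were tested. By limma 0 of the 7 were called in each comparison, beside 3.81% to 6.27% of all tested probe sets. An unadjusted p under 0.05 was reached by 1, AT2G23200, in rsl4-1 against Col-0 (16% of all tested). In 35S::RSL4 against rsl4-1 it was reached by 2, AT2G23200 and AT5G39020 (19.4% of all tested). AT2G23200 was above the 40th percentile in rsl4-1 alone. It was tested only through the genotype where it was high, so nothing is drawn from its part in these counts. With only 3.81% to 6.27% of all tested probe sets called, 0 calls do not show that these 7 genes stayed level. Their log2 changes against Col-0 ran from -0.30 to 0.05 in 35S::RSL4 (median -0.01, both over all 7). In rsl4-1 they ran from -0.13 to 0.33 without AT2G23200 (median 0.08 over all 7). AT2G23200 was dim in Col-0, and its change in rsl4-1, left out of that range, was the highest of the 7. AT5G39020 had the smallest unadjusted p of the family, with signals of 38.1 and 26.2 in 35S::RSL4, of 50.2 and 47.4 in rsl4-1, and of 44.5 and 34 in Col-0. Both 35S::RSL4 arrays were below both rsl4-1 arrays, but the log2 change of -0.63 between these lines did not pass (adjusted p = 0.12 by limma). Against Col-0 its log2 change was -0.30 in 35S::RSL4 (adjusted p = 0.44) and 0.33 in rsl4-1 (adjusted p = 0.52). THE1 (THESEUS1), which senses the state of the cell wall, had signals of 101 and 105 in 35S::RSL4, of 115 and 116 in rsl4-1, and of 97.3 and 111 in Col-0. Its log2 change was -0.02 in 35S::RSL4 (adjusted p = 0.96) and 0.15 in rsl4-1 (adjusted p = 0.68). AT2G39360 had signals of 91 and 77.2 in 35S::RSL4, of 70.5 and 85.5 in rsl4-1, and of 89 and 81.5 in Col-0, and its genotypes overlapped one another. AT2G23200 had signals of 17.2 and 16.9 in 35S::RSL4, of 23 and 30.4 in rsl4-1, and of 13.8 and 21.2 in Col-0. It was under the 40th percentile on both arrays of 35S::RSL4 and of Col-0, so no size of change is given, and it passed neither in rsl4-1 against Col-0 (adjusted p = 0.30) nor in 35S::RSL4 against rsl4-1 (adjusted p = 0.24).

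Around the receptor, 17 further genes of the FER pathway were listed, of which 3 were tested and 1 was called, in both comparisons that include rsl4-1. Of all tested probe sets 3.81% were called in rsl4-1 against Col-0 and 5.46% in 35S::RSL4 against rsl4-1. AT2G41970, the called one, had signals of 161 and 176 in 35S::RSL4, of 73.5 and 71.7 in rsl4-1, and of 127 and 124 in Col-0. The genotypes did not overlap, and the order was rsl4-1, Col-0, 35S::RSL4 from low to high. In rsl4-1 it fell 1.73-fold against Col-0 (log2 change -0.79, adjusted p = 0.0041), which no longer passed without Col-0 replicate 1 (adjusted p = 0.054). In 35S::RSL4 it was 2.32-fold higher than in rsl4-1 (log2 change 1.21, adjusted p = 3.4e-05), a call kept without any 1 of the 6 arrays (adjusted p up to 0.002). Against Col-0 its log2 change in 35S::RSL4 was 0.42 (adjusted p = 0.092), which passed with median centring (0.50, adjusted p = 0.048).

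RALFL33, which encodes a peptide of the RALF family, had signals of 327 and 272 in 35S::RSL4, of 251 and 277 in rsl4-1, and of 237 and 226 in Col-0. Col-0 was the lowest, and neither line passed (log2 change 0.37 in 35S::RSL4, adjusted p = 0.13, and 0.19 in rsl4-1, adjusted p = 0.56). AT3G24480, the remaining tested gene of that list, did not pass either (log2 change 0.23 in 35S::RSL4 and 0.47 in rsl4-1, adjusted p = 0.65 and 0.43). It was dim, with signals of 20.5 and 37.3 in 35S::RSL4, of 31.1 and 34 in rsl4-1, and of 21.7 and 25.4 in Col-0. Replicate 1 of 35S::RSL4 and of Col-0 was under the 40th percentile, so these sizes are uncertain. In the ROP GTPase list of 18 genes SCN1 was the only one tested. The other 2 with their own probe set, AT1G12070 and AT1G62450, were below the 40th percentile on all 6 arrays, with signals from 2.99 to 8.41.

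**Figure D3:**
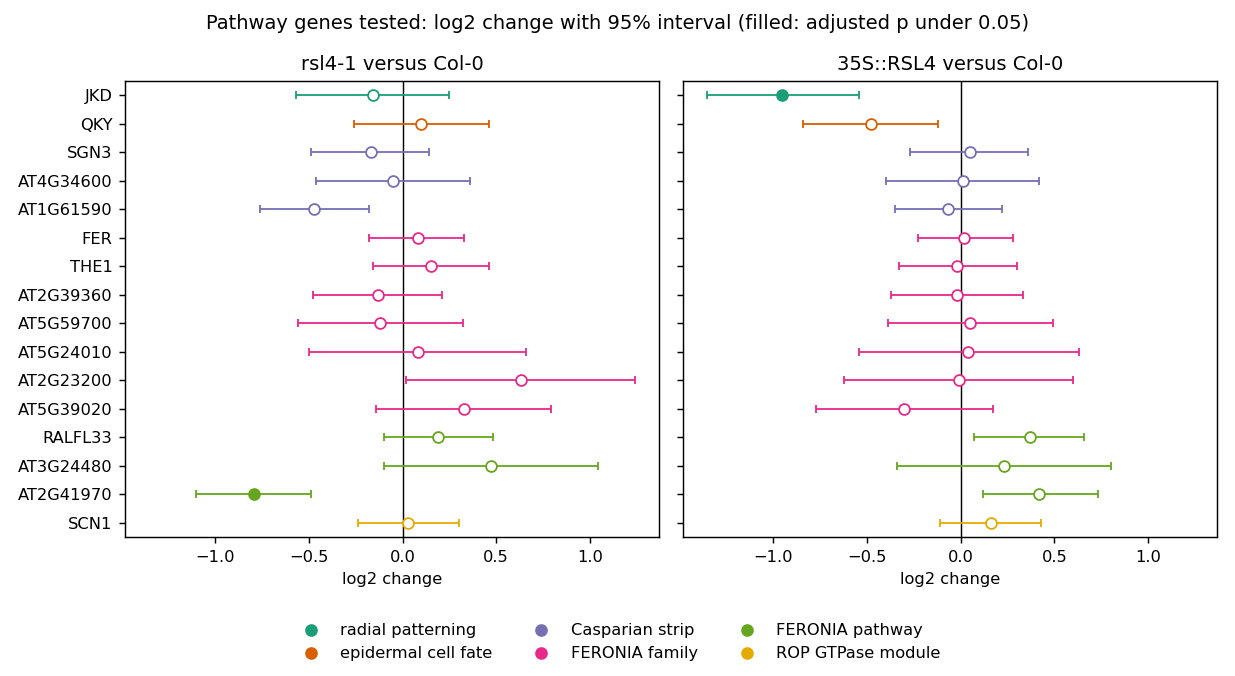
Log2 change against Col-0 (horizontal axis) of the 16 tested pathway genes in rsl4-1 and in 35S::RSL4, with 95% intervals from limma, colours for the lists and filled points for adjusted p under 0.05. JKD at -0.95 in 35S::RSL4 and AT2G41970 at -0.79 in rsl4-1 are the filled points, and FER with its tested relatives lies between -0.30 and 0.05 in 35S::RSL4. AT2G23200 was under the 40th percentile on both arrays of 35S::RSL4 and of Col-0, so its drawn sizes are uncertain.

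The 5 tested genes whose 6 log2 signals followed those of JKD most closely, after each gene's mean was removed, were SP1L2, AT2G35155, AT5G66470, AT1G48690 and AT3G57160. Their root mean square differences from JKD were 0.0629 to 0.111, against a median of 0.425 over the tested probe sets with 1 gene. SP1L2, a relative of the microtubule-associated protein SPIRAL1, had signals of 51.2 and 54.7 in 35S::RSL4, of 82.2 and 90.8 in rsl4-1, and of 101 and 102 in Col-0. AT2G35155 had signals of 28.4 and 26 in 35S::RSL4, of 47.3 and 53.6 in rsl4-1, and of 53.2 and 48 in Col-0. AT5G66470 was below the 40th percentile on both 35S::RSL4 arrays, at 16.7 and 13.6. These genes were chosen for this pattern, so it is not tested.

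**Figure D4:**
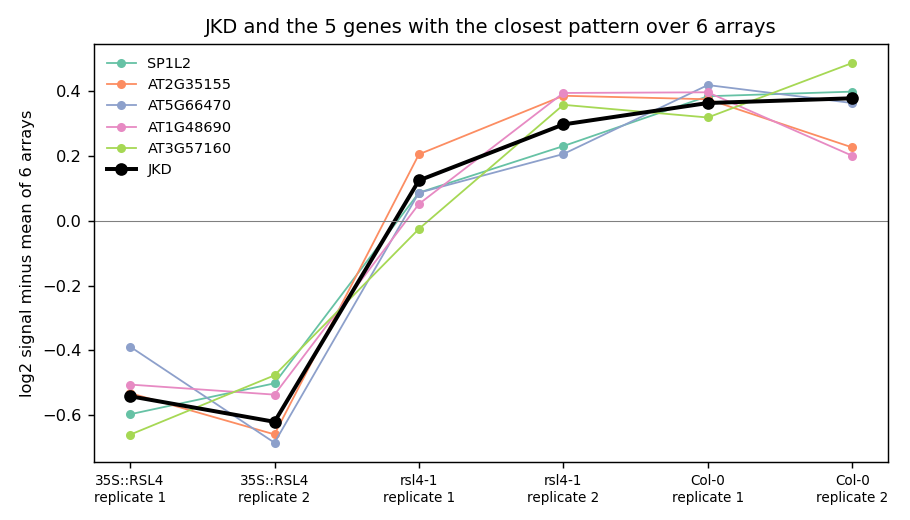
Log2 signal minus the gene's mean over 6 arrays (vertical axis) for JKD, in black, and the 5 genes with the closest pattern, on each array (horizontal axis). All 6 lines lie below 0 on both 35S::RSL4 arrays and above 0 on rsl4-1 replicate 2 and on both Col-0 arrays.

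Loci next to the 4 genes were compared in the same way. Of the 20 nearest tested loci around JKD, 10 on each side, limma called 0 in each of the 3 comparisons. This is near the shares of all tested probe sets: 6.27% in 35S::RSL4 against Col-0, 3.81% in rsl4-1 against Col-0 and 5.46% between the lines. An unadjusted p under 0.05 was reached by 2 of the 20 in 35S::RSL4 against Col-0 (22.7% of all tested). For 35S::RSL4 against rsl4-1 it was 3 (19.4% of all tested). The median log2 change of the 20 in 35S::RSL4 against Col-0 was -0.10. In rsl4-1 against Col-0, 0 of the 20 tested loci around each of SGN3, FER and SCN1 were called too. There 1, 3 and 2 of them had an unadjusted p under 0.05, beside 16% of all tested probe sets. In 35S::RSL4 against Col-0 the counts with such a p were 1, 5 and 2, beside 22.7%. AT3G51540, the annotated locus next to FER, had signals of 41.4 and 43.6 in 35S::RSL4, of 19.8 and 17.6 in rsl4-1, and of 31.5 and 29.9 in Col-0. It was at least 1.95-fold higher in 35S::RSL4 than in rsl4-1, where both arrays were below the 40th percentile (adjusted p = 0.0025). The log2 change of FER in this comparison was -0.05 (adjusted p = 0.87). Near FER, AT3G51730 was higher in 35S::RSL4 than in Col-0 (log2 change 0.50, adjusted p = 0.019), a call that ended without 35S::RSL4 replicate 2 or either Col-0 array (adjusted p up to 0.15), without the filter on dim probe sets (adjusted p = 0.069) and without the intensity trend (adjusted p = 0.086). Near SGN3, AT4G20320 was lower in 35S::RSL4 than in rsl4-1 (log2 change -0.68, adjusted p = 0.0078), a call that ended without either rsl4-1 array (adjusted p up to 0.073). Its call against Col-0 (log2 change -0.52, adjusted p = 0.04) ended without any 1 of the 6 arrays (adjusted p from 0.058 to 0.24), with the replicate number as a block (adjusted p = 0.054) and with 4 other settings (adjusted p from 0.059 to 0.075).

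The roots were checked against markers of tissues. PYK10, an abundant root beta-glucosidase, had signals of 4310 and 4160 in 35S::RSL4, of 4450 and 5080 in rsl4-1, and of 4470 and 3740 in Col-0, and AT1G62500, which stood on the same list, was below the 40th percentile on all 6 arrays, at signals from 8.97 to 17.2. Of 5 root hair cell markers 3 were measured (EXPA7, EXPA18 and XTH26), and their summed signal was 810 and 883 in 35S::RSL4, 283 and 242 in rsl4-1, and 417 and 393 in Col-0. Of 9 shoot markers 2 were measured (LHCB4.1 and RCA), and their sum was 257 and 251 in 35S::RSL4, 258 and 258 in rsl4-1, and 387 and 324 in Col-0. The shoot sum was lower on all 4 arrays of the lines than on the Col-0 arrays, and of its 2 genes limma called LHCB4.1 alone, with a log2 change of -0.70 in 35S::RSL4 (adjusted p = 0.0093) and -0.67 in rsl4-1 (adjusted p = 0.016) against Col-0. The first of these calls ended without 35S::RSL4 replicate 2 or Col-0 replicate 1 (adjusted p up to 0.16), and the second without any 1 of its 4 arrays (adjusted p up to 0.21) and without the intensity trend (adjusted p = 0.057). RCA was not called (log2 change -0.23 in 35S::RSL4 and -0.22 in rsl4-1, adjusted p = 0.39 and 0.54), and its signal was 128 and 130 in 35S::RSL4, 122 and 139 in rsl4-1, and 168 and 136 in Col-0. The summed markers of hair cells were highest in 35S::RSL4, where JKD was lowest. They were lowest in rsl4-1 (mean 262, against 405 in Col-0), where JKD was not highest (mean 44.4, against 49.5 in Col-0). Their part in the JKD result was not tested. No marker of endodermis, root cap, vasculature or meristem on the lists had a probe set of its own in the annotation used here. In such bulk RNA, fewer cells of a type and less RNA per cell cannot be told apart.

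Across tested probe sets, which are not independent replicates, Pearson correlations were 0.982 to 0.986 between the 2 arrays of a genotype and 0.957 to 0.972 between genotypes. Of the called probe sets 54.1% were higher in 35S::RSL4 against Col-0 and 43.7% in rsl4-1 against Col-0, and median centring turned these shares to 73.3% and 54.6%.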

How the data were processed

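Each of the 6 columns holds 1 array's intensity as a linear MAS5 signal, which the authors made with the tools MAS5 and GCOS, as listed in the submitters' processing notes. Their versions are not given in the sources used here. Trimmed of its lowest and highest 2%, the mean signal was 100.01 on every array, and the deposited scaling was left as it was. MAS5 treats arrays one by one, its signals for dim probe sets are noisy, and scaling hides a change of total RNA. After removal of 64 controls from 22810 probe sets, 14170 of 22746 passed a filter that asked for a signal over the 40th percentile of the same array on 2 or more of 6 arrays. In the annotation 13513 probe sets have 1 gene, 503 have several and 8730 are not listed. Names and the order of loci came from the RefSeq table of TAIR10.1, in which 13436 of the 13513 were found. No coordinates or sequences are given.

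All 6 arrays entered 1 fit of log2 signals by genotype in limma 3.58.1 under R 4.3.3 (lmFit, then eBayes with trend, with 3 residual and 13.2 prior degrees of freedom). On simulated data for 35S::RSL4 against Col-0, with 200 of 14170 probe sets changed, it recovered 58% of 2-fold and 96% of 4-fold changes. In the real comparison 888 probe sets were called, and the adjusted p depends on that share, so recovery there may differ. A 2-fold change can thus fail the test. P-values are two-sided and adjusted by Benjamini-Hochberg over all tested probe sets, with a threshold of 0.05. Exact permutation of 2 against 2 arrays allows no p under 0.333 and was not used. Folds are powers of 2 of log2 changes. Where both arrays of a genotype were under the 40th percentile, the fold is a bound ("at least"). The number of arrays limits the precision.

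The 4 genes, the pathway and marker lists and the tests were chosen with earlier results of these data known. Named were the 4 genes, called list members with up to 4 more per list by smallest p, genes among the 5 of closest pattern to each of the 4, and called loci among the 10 nearest tested loci on each side. AT5G59700 and AT5G24010 are drawn in a figure only. The alternatives tried were another normalization (quantile) or centring (median), no filter or a filter on all 6 arrays, an offset at the 20th percentile, a fit without the intensity trend, a fit of the 2 genotypes compared alone, a replicate block, and leaving out each array.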

Additional observations from a re-analysis of the deposited data

How the results depend on the processing

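Of 168 alternative values of the 4 genes, 155 kept their direction and their side of the threshold. JKD kept its direction in 35S::RSL4 throughout. Its log2 change against rsl4-1 was -0.79 with no filter (adjusted p = 0.077), where more probe sets were tested. When each array was left out in turn, the log2 change of JKD in 35S::RSL4 was -0.99 to -0.91 against Col-0 (adjusted p 0.012 to 0.076) and -0.87 to -0.70 against rsl4-1 (adjusted p 0.039 to 0.18). The lone array of the genotype was then assumed to vary like the others. Signs turned only for values near 0 that were never called. FER in 35S::RSL4 against Col-0 was -0.03 with quantile normalization, and without each array in turn FER spanned -0.03 to 0.08, SGN3 -0.08 to 0.18, and SCN1 in rsl4-1 against Col-0 -0.08 to 0.14. The causes were not tested.

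The counts of calls over all tested probe sets, higher and lower, were 236 and 304 in rsl4-1 against Col-0, 480 and 408 in 35S::RSL4 against Col-0, and 452 and 322 in 35S::RSL4 against rsl4-1. With no filter these counts were 107 and 158, 230 and 174, and 301 and 181. With no intensity trend 136 were higher in rsl4-1 and 282 in 35S::RSL4 against Col-0, and median centring left 261 lower in 35S::RSL4. Leaving out each array gave 60 to 236 higher and 117 to 287 lower in rsl4-1 against Col-0, 126 to 423 and 86 to 339 in 35S::RSL4 against Col-0, and 247 to 392 and 102 to 261 in 35S::RSL4 against rsl4-1.

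The labels do not say that a replicate number marks a shared batch. Deviations of the arrays numbered 1 from their genotype means correlated at -0.08, 0.12 and -0.19 between pairs of genotypes. With the replicate block JKD had log2 changes of -0.95 against Col-0 (adjusted p = 0.0099) and -0.79 against rsl4-1 (adjusted p = 0.03) in 35S::RSL4, and the counts were 230 higher and 290 lower in rsl4-1 and 444 higher and 358 lower in 35S::RSL4 against Col-0.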

Other observations

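Several relatives and partners of the 4 genes were too dim to compare. In the FER family ANX1 and ANX2 (ANXUR1 and ANXUR2), receptor kinases known from pollen tubes, had signals from 0.266 to 4.27 over the 6 arrays. With them, 5 of the 12 family members with a probe set of their own were below the 40th percentile on all 6 arrays, at signals up to 8.78. TRY (TRIPTYCHON), a MYB protein of epidermal cell fate, had signals of 4.78 and 5.42 in 35S::RSL4, of 3.78 and 12.2 in rsl4-1, and of 4.11 and 3.59 in Col-0, all below that percentile.

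The genes closest in pattern to the other 3 were chosen for that pattern, so it is not tested. For FER they included AIM1, an enzyme of fatty acid beta-oxidation, with signals of 456 and 455 in 35S::RSL4, of 446 and 476 in rsl4-1, and of 463 and 446 in Col-0. For SGN3 the closest was POR (PORCINO), a tubulin-folding cofactor, with signals of 51.9 and 61.6 in 35S::RSL4, of 44.4 and 50.8 in rsl4-1, and of 55.1 and 52.6 in Col-0. For SCN1 they included RBP45B, an RNA-binding protein gene, with signals of 965 and 925 in 35S::RSL4, of 807 and 937 in rsl4-1, and of 888 and 912 in Col-0. Their root mean square differences over the 6 arrays were 0.0217 to 0.0323 for the 5 genes closest to FER, 0.033 to 0.0469 for SGN3 and 0.0367 to 0.0442 for SCN1.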
